A study of Mus musculus with 14 samples.

Results

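CTCF is a zinc-finger protein that binds a long DNA motif and, where cohesin meets it, anchors chromatin loops. These data describe 2083 CTCF sites that mouse cells with a mutant CTCF (K20R, lysine 20 replaced by arginine) held as embryonic stem cells but no longer showed as a peak 4 days after differentiation began, while unaltered (WT) cells still showed one. Peaks of 8 CTCF lists that overlapped by at least 1 bp were merged into 86652 sites. The 2083 sites were chosen by their calls: a peak in both K20R lists of day 0 (D0), in both WT lists of day 4 (D4), and in neither D4 K20R list. They make up 2.40% of all sites and 4.84% of the 43047 candidate sites, which met the first 2 conditions. Of the other candidates, 3750 had a peak in 1 D4 K20R list (partial sites) and 37214 in both (retained sites). A further 6259 sites, called in both D4 WT lists and in no K20R list on either day, served as a comparison. Over all 55053 sites called in both D4 WT lists, 18.8% had no D4 K20R peak, and the 2083 sites were 20.1% of those.

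All cells derived from the E14Tg2A mouse embryonic stem cell line, which was grown on inactivated mouse embryo fibroblasts with leukemia inhibitory factor and the 2i inhibitors. K20R was introduced by CRISPR/Cas9 editing. D4 samples are embryoid bodies, aggregates made by the hanging-drop method in serum without leukemia inhibitory factor. Each genotype and day had 2 CTCF ChIP-seq libraries, and D4 had 1 library per genotype of H3K27ac, an acetylated histone mark of active promoters and enhancers. How many edited clones the K20R libraries represent is not given in the sources used here, so genotype and clone cannot be told apart. The 4 input libraries were not analysed here. A peak list records only what passed a caller's limit, so a site without a D4 K20R peak was below that limit and was not shown to be free of CTCF.

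The lists held between 41360 and 77657 peaks, with the 2 shortest at D4 in K20R (41360 and 47463) and the longest in the first D0 WT library. H3K27ac peaks lay within 3 kb of a start site of 2 of 4 primitive streak and mesoderm genes in WT (T and Eomes, not Mixl1 or Mesp1) and of none of these 4 in K20R. In both genotypes 3 of 4 pluripotency genes (Pou5f1, Nanog and Sox2, not Esrrb) and 1 of 4 fibroblast genes (Thy1, not Col1a1, Col1a2 or Postn) had one. The part of this marker difference in the results below was not tested.

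CTCF contacts its motif through several zinc fingers, and many of its sites in the mouse lie in copies of short interspersed repeats that carry the motif. Methylation of a CpG inside the motif is known to weaken binding at some sites. A 19-base motif was learned from the strongest D0 WT peaks, and the letters of its most frequent bases are given first below. The best match within 100 bp of a site's summit is shown in capitals, with 15 bases on each side, from the GRCm38 reference (the build of the lists) on the strand of the match. The first 5 are the strongest of the 2083 sites whose match passed the threshold (exceeded by 5% of sequences 1 kb away), and they differ from one another.
most frequent bases of the motif: CGGCCACCAGGGGGCGCTG
intergenic site, chr19:21734371-21734419, plus strand: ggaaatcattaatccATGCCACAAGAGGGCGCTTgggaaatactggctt
intergenic site, chr14:46722187-46722235, minus strand: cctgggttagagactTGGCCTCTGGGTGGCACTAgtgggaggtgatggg
intergenic site, chr12:37183862-37183910, minus strand: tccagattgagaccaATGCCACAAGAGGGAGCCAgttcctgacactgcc
intron of Gtf2f1, chr17:57007283-57007331, minus strand: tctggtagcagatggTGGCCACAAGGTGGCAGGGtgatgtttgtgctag
intergenic site, chr6:62933343-62933391, minus strand: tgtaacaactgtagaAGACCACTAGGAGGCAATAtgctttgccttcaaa

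Members near genes of the lists described further on gave the next 4 matches. A match near Smad2 that also passed the threshold, in a masked repeat, is not shown with these 4. All 4 lie in masked repeats and share a stretch of 12 bases, ccagaagagggc, that recurred among the 2083 sites.
near Pou5f1, chr17:35497635-35497683, plus strand: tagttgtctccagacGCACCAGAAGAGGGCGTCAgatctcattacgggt
near Ctcfl, chr2:173126868-173126916, plus strand: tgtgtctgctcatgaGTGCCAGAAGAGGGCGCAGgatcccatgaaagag
near Pds5a, chr5:65706353-65706401, minus strand: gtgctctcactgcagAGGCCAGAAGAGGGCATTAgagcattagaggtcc
near Zfp143, chr7:110067929-110067977, plus strand: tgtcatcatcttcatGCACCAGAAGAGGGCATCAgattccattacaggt

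The matches of the 3 strongest retained sites by D4 WT percentile are shown beside them. They were equal to the most frequent bases of the motif at 15, 13 and 15 of 19 positions, and the 9 matches above at 9 to 14 positions, so these ranges overlap.
retained, intron of Zfp384 and 4930557K07Rik, chr6:125030685-125030733, minus strand: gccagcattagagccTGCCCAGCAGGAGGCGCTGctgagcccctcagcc
retained, intergenic, chr2:26647038-26647086, plus strand: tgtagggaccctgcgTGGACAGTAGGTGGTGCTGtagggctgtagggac
retained, exon of H2-DMa, chr17:34135401-34135449, plus strand: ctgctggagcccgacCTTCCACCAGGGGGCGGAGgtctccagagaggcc

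The 2083 sites had a lower median CTCF signal than retained sites in every library where they were called. Signal is given as pileup, the number of reads stacked at a peak's summit, which was recovered from the deposited fold enrichment and −log10 p. The median pileup of the 2083 sites was 13 reads in each D4 WT library and 12 reads in each D0 K20R library. In the D0 WT libraries it was 22 reads over the 2068 sites called in the first and 13 reads over the 1577 called in the second. Retained sites had medians of 39 and 39 reads at D4 in WT, 54 and 53 reads at D0 in K20R, and 55 and 32 reads at D0 in WT. In the D4 K20R libraries, retained sites had 34 and 52 reads, so the first of these was lower and the second higher than both D4 WT libraries. As a percentile of fold enrichment within a list, the median of the 2083 sites was 27.6 and 27.8 at D4 in WT, and 18.2 and 18.4 at D0 in K20R. In D0 WT it was 46.6 in the first library, which had the longest list, and 26.0 in the second, over the sites called in each.

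**Figure D1:**
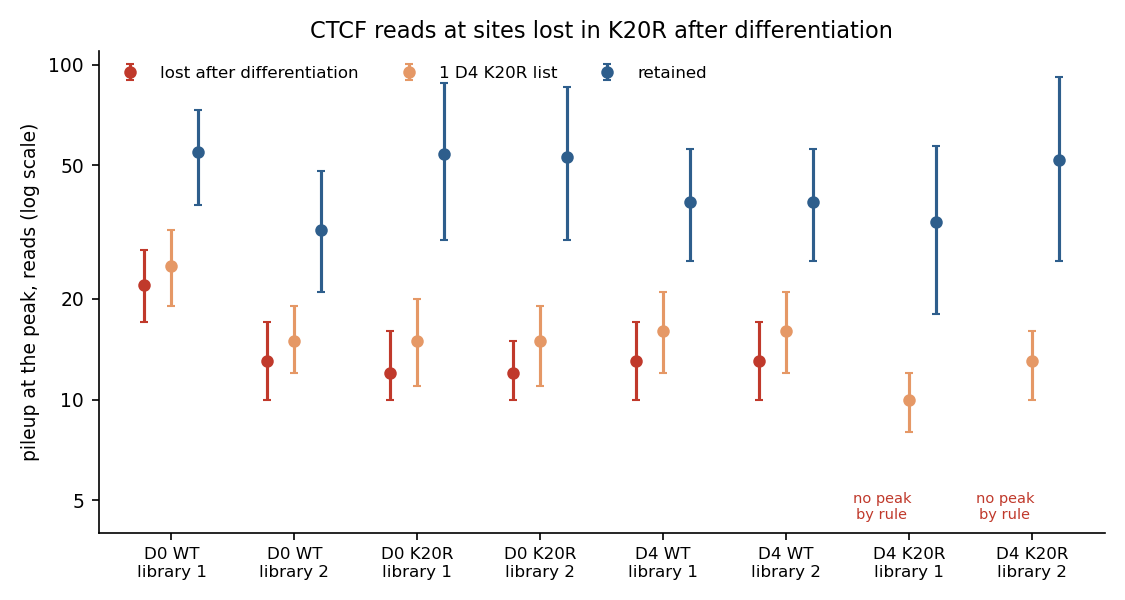
Pileup in reads (log axis) at sites lost after differentiation, at sites called in 1 D4 K20R list and at retained sites, in each of the 8 CTCF libraries. Points are medians over the sites called in that library and bars run from the lower to the upper quartile. The lost sites have medians of 12 or 13 reads except in D0 WT library 1 (22 reads), below the retained sites in every library where they were called.

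Pileups at peaks of the 2 D0 WT libraries were not alike, and those of the second were lower in each of the lost, partial and retained classes, although the libraries had been subsampled to one read number. D0 genotypes are therefore compared mainly by rank within a library. The D0 reads listed for single sites describe each library and do not compare the genotypes.

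Most of the 2083 sites were also among the weaker candidates in D4 WT, a description with no test since D4 calls chose them. Candidates were split into 10 deciles by D4 WT percentile. Of the weakest decile, 25.4% were lost and 42.1% retained. In the second decile 13.4% were lost, in the third 6.46% and in the fourth 2.07%. No site was lost in the 3 strongest deciles, and 1671 of the 2083 lay in the 2 weakest. Their mean D4 WT percentile had a median of 27.1 and a range from 0.739 to 76.4. The smallest pileup that could have been called in the D4 K20R lists, at the background measured for the same site in WT, had a median of 5 reads. The D4 WT pileup was a median of 2.33 times this limit (quartiles 1.90 and 3.00), at least 3 times it at 535 sites (25.7%), and at most 7.5 times it. The corresponding median was 2.75 for partial and 6.5 for retained sites.

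**Figure D2:**
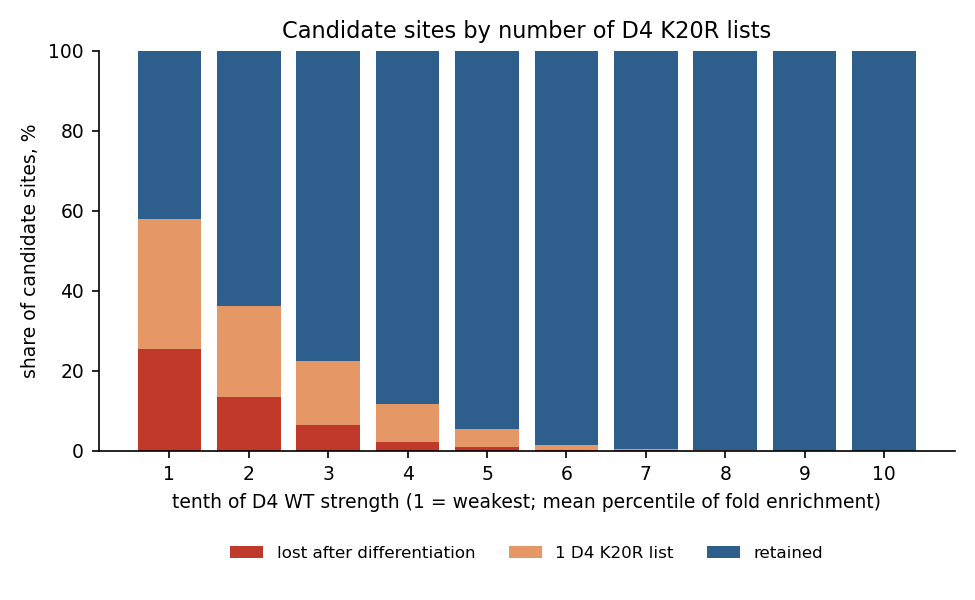
Share of candidate sites in % (vertical axis) that had no peak, 1 peak or 2 peaks in the D4 K20R lists, by decile of D4 WT strength (horizontal axis, weakest first, 4292 to 4319 sites each). Lost sites make up 25.4% of the first decile and 0.836% of the fifth.

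How many sites meet the rule depended on list length and on single libraries. With every list limited to its 41360 strongest peaks, 308 of 33239 candidates (0.927%) were lost, and 167 of these overlapped the 2083. Without the second D4 K20R library, 5187 of 43089 candidates were lost. Without the second D0 K20R library the number was 3135 and without the first 3035. Sites near the edge of the rule were also few in reads: 650 partial sites were called only in the first D4 K20R library, with a median of 10 reads, and 3100 only in the second, with a median of 13 reads. Of these, 28 and 45 had at most 6 reads. Of the 2083 sites, 3 had the summit of a D4 K20R peak within 500 bp, the nearest at 438 bp. The rule barred D4 K20R peaks that overlapped a site, so the lack of near summits follows in part from it.

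The rule used no D0 WT list, so these libraries show whether the sites were bound in WT stem cells. Of the 2083 sites, 75.5% (95% Wilson interval 73.6% to 77.3%) were called in both D0 WT libraries, 24.0% in 1 and 0.528% (11 sites) in neither. Of all 86652 sites, 58.6% were called in both. The share was 84.5% (83.3% to 85.6%) of partial, 97.9% (97.8% to 98.1%) of retained and 19.7% (18.7% to 20.7%) of the sites absent in K20R on both days. All intervals here reflect counting error alone, with each site taken as an independent draw. The first D0 WT library, with the longest list, held 99.3% of the 2083 sites and the second 75.7%. Of the 499 sites called in 1 library, 495 were called in the first.

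At D0, those of the lost sites that were called in all 4 D0 lists ranked lower in K20R than in WT stem cells. These were 1573 of the 2083, each ranked by fold enrichment among the 43422 sites called in all 4 lists. The median rank of these sites was at percentile 14.8 and 14.9 in the WT libraries and at 9.15 and 9.06 in the K20R libraries. Both K20R values lay below both WT values, with a mean of 9.10 ± 0.0619 (SD, n = 2) against 14.9 ± 0.103 (SD, n = 2). The difference was -5.75 percentile points. It was -5.86 points without the first D0 WT library, -4.69 points without the second, -10.8 points with lists of one length and -18.3 points as percentiles of the full lists. As pileup the groups did not separate, with medians of 24 and 13 reads in WT and 13 and 13 in K20R. Of the sites left out, 499 were missing from 1 D0 WT list and 11 from both. With all 2083 kept, ranked among the 43047 candidates and tied lowest where not called, the medians were 11.4 and 11.8 in WT and 8.11 and 8.52 in K20R, a difference of -3.29 points. No test is given, since the rule required peaks in both D0 K20R lists and no peak in the D4 libraries of the same genotype, and the first comparison also required peaks in both D0 WT lists.

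Partial sites differed by -4.16 points, from medians of 17.3 and 19.9 in WT to 14.5 and 14.4 in K20R, and by -1.90 points in the weakest quintile of D4 WT strength (candidates in 5 equal groups). Retained sites of the weakest quintile moved the other way. Their medians were 24.9 and 24.1 in WT and 27.3 and 27.7 in K20R, a difference of 2.97 points. Peaks in both D4 K20R lists had chosen them, so this difference is a description too. Their median D4 WT percentile was 30.5, against 25.5 at partial and 23.4 at lost sites of this quintile. In the same quintile, the lost sites had medians of 14.1 and 13.5 in WT and 8.72 and 8.80 in K20R. With sites not called tied lowest, the differences in this quintile were -2.15 points for lost, -0.348 points for partial and 3.18 points for retained sites. Taken site by site, both K20R ranks lay below both WT ranks at 39.9% of the 1573 lost sites and 35.7% of partial sites. The share was 30.6% of all sites called in all 4 D0 lists. Both K20R ranks lay above both WT ranks at 12.6% of lost, 16.5% of partial and 31.4% of retained sites. The share above was not computed over all sites.

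**Figure D3:**
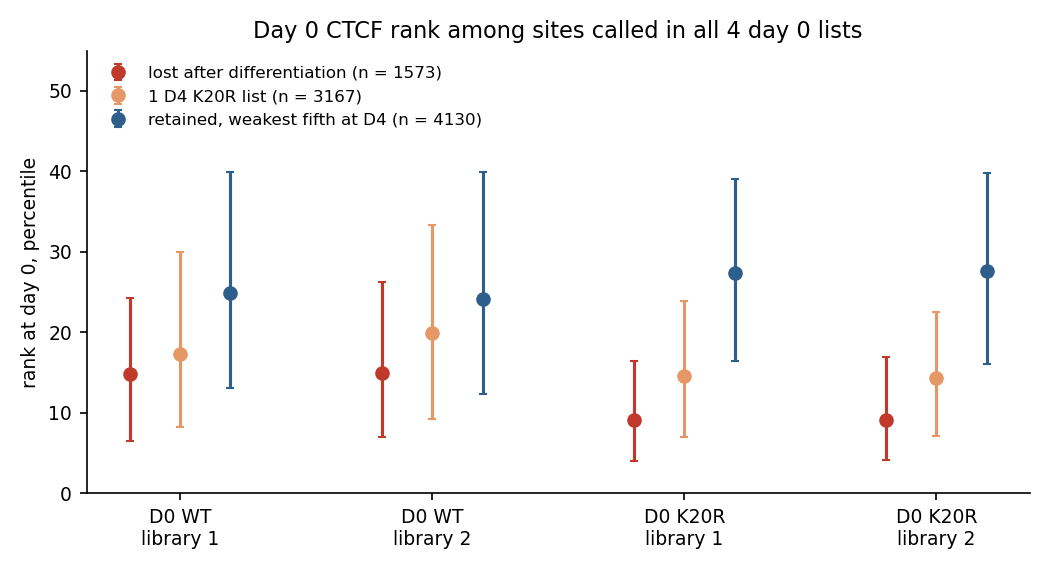
Rank at D0 as a percentile of fold enrichment among sites called in all 4 D0 lists (vertical axis), in each D0 library. Points are medians and bars quartiles of lost sites, of sites called in 1 D4 K20R list and of retained sites in the weakest quintile of D4 WT strength. Lost sites sit near 15 in both WT libraries and near 9 in both K20R libraries, and the retained sites at 24.1 to 27.7.

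Day 0 rank in K20R also varied with loss inside the weakest quintile. Candidates in the weakest quintile that were called in all 4 D0 lists were split into tertiles of D0 K20R rank. In the lowest tertile 33.4% (31.6% to 35.3%) were lost, in the middle tertile 13.8% (12.5% to 15.2%) and in the highest 2.86% (2.26% to 3.60%). Split by D0 WT rank, the shares were 24.2%, 18.1% and 7.75%. These shares are a description, since the rule itself required a D0 K20R peak.

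The sequence of the 2083 sites differed from that of retained sites. A motif match was present at 69.9% (67.9% to 71.8%) of the 2083, at 70.2% of partial, 87.3% of retained and 61.6% of the sites absent in K20R on both days. The difference from retained sites was -17.4 points (95% Newcombe interval -19.5 to -15.5), that from partial sites -0.314 points (-2.78 to 2.12), and that from sites absent on both days 8.31 points (5.97 to 10.6). At a stricter threshold, exceeded by 1% of shifted sequences, 34.6% of the 2083 and 58.5% of retained sites had a match. The stricter shares were 35.6% and 53.7% in the weakest quintile of D4 WT strength, a difference of -18.1 points (-20.8 to -15.4). At the first threshold the differences were -13.9 points (-16.4 to -11.5) in the weakest quintile, -11.1 points (-16.0 to -6.72) in the next, and 5.14 points (-7.42 to 10.9) in the third, which held 42 lost sites. Splitting into quintiles matched strength only in part: in the weakest quintile the median D4 WT percentile was 23.4 at lost, 25.5 at partial and 30.5 at retained sites. The median best score was 10.8 at lost, 10.8 at partial and 15.2 at retained sites, in log2 units of the matrix, and the match lay a median of 20 bp from the summit at lost and 15 bp at retained sites.

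A CpG, the dinucleotide that can be methylated, was less frequent in the matches of the 2083 sites. Of their 1456 matches, 32.1% (29.7% to 34.5%) held one, against 38.9% in partial, 48.3% in retained and 26.4% in sites absent on both days. The difference from retained sites was -16.2 points (-18.6 to -13.7). Within the weakest quintile it was -9.96 points (-13.1 to -6.77), from 33.5% at lost and 43.5% at retained sites, and within the next quintile -13.6 points (-18.8 to -7.81). CpG content around the summit was also lower than at partial and retained sites. The mean number of CpGs within 100 bp on each side was 2.43 at lost, 4.07 at partial and 3.77 at retained sites, although the median was 2 in each. At sites absent on both days the mean was 2.34. Windows with at least 10 CpGs made up 2.50% of lost, 10.8% of partial, 7.74% of retained and 2.96% of absent sites. The median GC content was 46.3%, 47.8%, 48.3% and 47.3%. These window values were not recomputed without the second D4 K20R library. The most frequent bases of the motif themselves hold CpGs, and the classes were not compared at like match score. No DNA methylation was measured in this series.

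Of the lost sites' matches, 53.0% (50.4% to 55.5%) lay in sequence masked as repeat in the reference, against 47.1% in partial and 30.7% in retained sites, a difference from retained of 22.2 points (19.6 to 24.8). This direction turned within quintiles of strength. In the weakest quintile 58.8% of lost and 62.3% of retained matches were in repeats, a difference of -3.56 points (-6.81 to -0.349), and in the next quintile 32.1% and 45.8%, a difference of -13.7 points (-19.2 to -7.76). The most frequent 12-base stretch in the lost sites' matches was CCAGAAGAGGGC, printed above in the matches near Pou5f1, Ctcfl, Pds5a and Zfp143. It was chosen as the most frequent after the matches were read, on the strand of the match only. It occurred in 505 of the 1456 lost matches (34.7%, 32.3% to 37.2%), 27.5% of partial, 17.8% of retained matches and 27.1% of those absent on both days. All 505 lay in masked repeats, and 0 of the 685 other lost matches held it, which allows a share of up to 0.438%. The other classes were alike in this. Masked repeats held 722 of the 725 partial, 5788 of the 5797 retained and 1038 of the 1043 absent matches with this stretch. In the weakest quintile it occurred in 39.7% of lost and 39.5% of retained matches. The masking does not name the repeat family, and reads from repeats with near-identical copies can be uncertain in position.

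**Figure D4:**
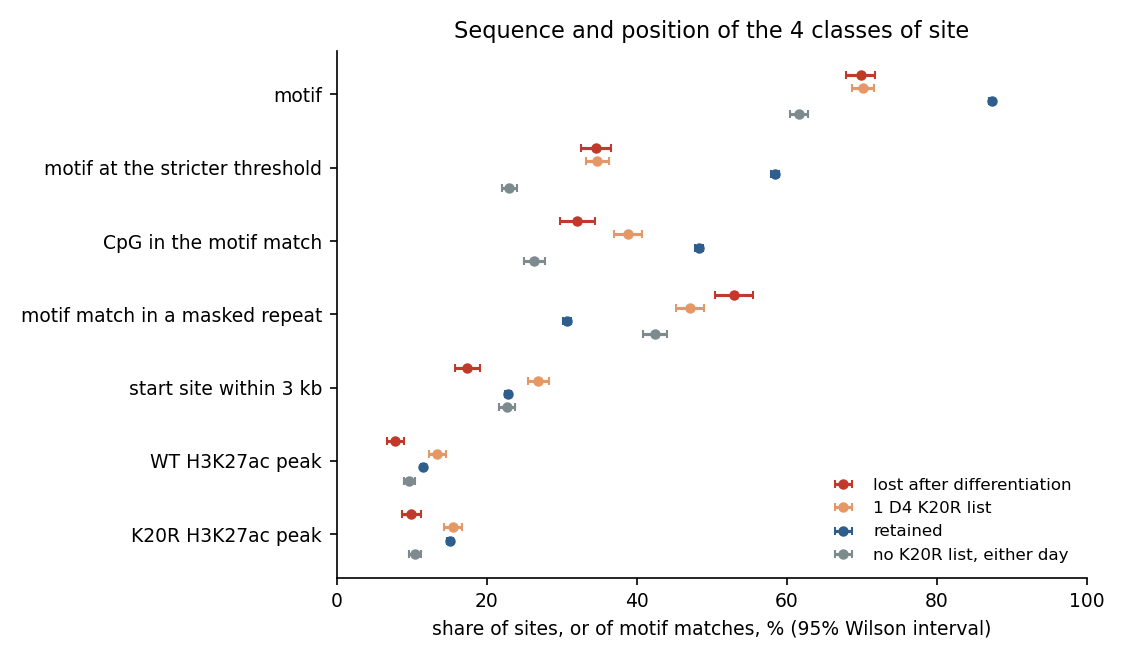
Share in % with 95% Wilson intervals (horizontal axis) of sites, or of motif matches for the CpG and repeat rows, in the 4 classes of site. Lost sites lie with partial sites for the motif (69.9% and 70.2%), and have the lowest share near a start site (17.4%).

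In the lists as deposited, sites lost after differentiation were less often near genes' start sites. Of the 2083, 17.4% (15.8% to 19.1%) had the summit within 3 kb of an annotated start site, against 22.9% of retained, 26.9% of partial and 22.7% of sites absent on both days. The differences were -5.49 points (-7.12 to -3.75) from retained, -9.47 points (-11.6 to -7.29) from partial and -5.29 points (-7.18 to -3.32) from sites absent on both days. In the weakest quintile the difference from retained sites was -3.12 points (-5.24 to -0.911). This contrast rested on the second D4 K20R library, and without it 24.8% of lost and 22.7% of retained sites were near a start site, a difference of 2.09 points (0.858 to 3.35). Of the partial sites called only in that library, 29.7% (28.1% to 31.3%) were near a start site, and of those called only in the first, 13.2% (10.8% to 16.1%). With lists of one length the difference was -3.35 points (-7.41 to 1.46). Of the 2083 summits, 51.0% lay in introns, 41.2% between genes and 7.78% in exons, and the median distance to a start site was 12518 bp.

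**Figure D5:**
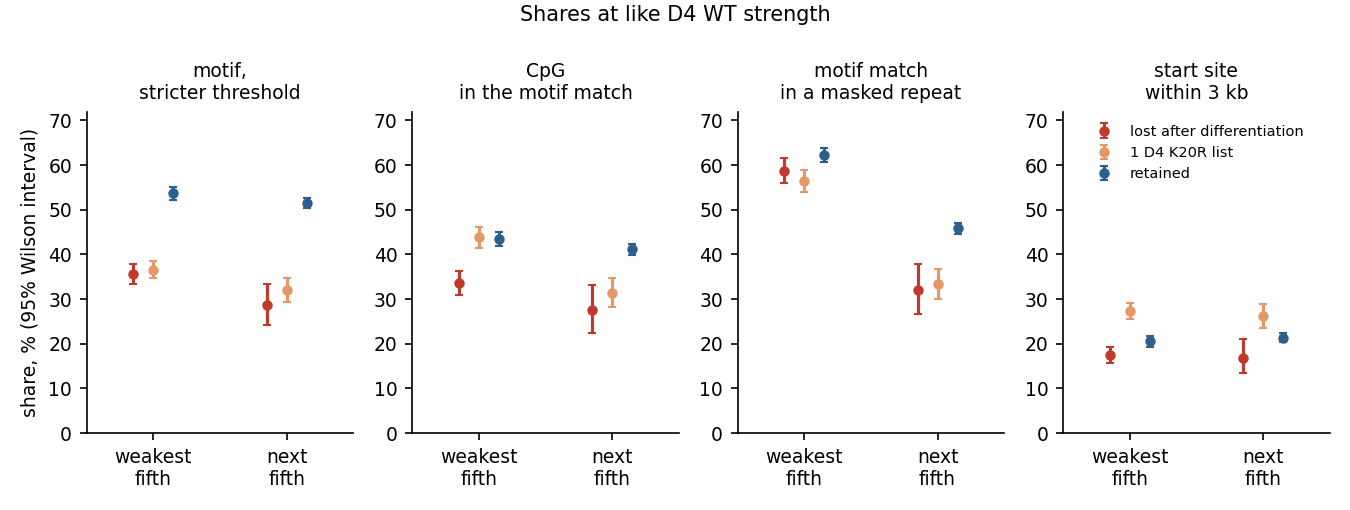
Shares in % with 95% Wilson intervals (vertical axis) in the 2 weakest quintiles of D4 WT strength, for lost sites, sites called in 1 D4 K20R list and retained sites. Lost sites lie below retained sites in both quintiles for the stricter motif threshold (35.6% against 53.7% in the weakest) and for a CpG in the match (33.5% against 43.5%), and the repeat share is 58.8% against 62.3% in the weakest quintile.

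H3K27ac at D4 marked few of the 2083 sites. A WT H3K27ac peak overlapped 7.78% (6.70% to 9.01%) of them and a K20R peak 9.94% (8.73% to 11.3%), where the K20R list held more peaks (45318 against 38982) and covered more of the genome (66.3 Mb against 55.7 Mb). Both genotypes had a peak at 118 sites, WT alone at 44, K20R alone at 89 and neither at 1832. Neither had one at 88.0% of lost, 83.0% of retained, 81.8% of partial and 87.0% of sites absent in K20R on both days. These absent sites had WT peaks in 9.70% and K20R peaks in 10.4% of cases, and partial sites in 13.4% and 15.5%. The difference of lost from absent sites was -1.92 points (-3.24 to -0.502) for WT and -0.479 points (-1.92 to 1.06) for K20R. Retained sites had WT peaks in 11.6% and K20R peaks in 15.1% of cases, differences of -3.82 points (-4.94 to -2.54) and -5.18 points (-6.45 to -3.78). In the weakest quintile the differences were -0.486 points (-1.96 to 1.11) and -0.299 points (-2.00 to 1.52), and both intervals include 0. In the next quintile they were -1.72 points (-3.92 to 1.35) and -5.37 points (-7.40 to -2.46). Without the second D4 K20R library the WT difference was 0.917 points (-0.00667 to 1.89) and the K20R difference -0.592 points (-1.59 to 0.449). With 1 H3K27ac library per genotype, these overlaps have no replicate check.

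The nearest other lost site lay a median of 303903 bp away, and 30 of the 2083 were within 5 kb of another. The spacing expected for this number of sites was not computed. The nearest retained site lay a median of 14598 bp away, with 23.4% within 5 kb, close to the 14656 bp and 24.3% of sites absent on both days. Partial sites had a median of 13472 bp and 26.2% within 5 kb.

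The strongest of the 2083 sites by D4 WT percentile, 76.4, lay in an intron of Cyp4f39, a member of the cytochrome P450 family, at chr17:32479459-32480008. It had 58 and 26 reads in D0 WT, 9 and 12 in D0 K20R, and 54 and 36 in D4 WT. Its D0 ranks were 71.0 and 50.5 in WT and 3.97 and 10.5 in K20R. Its best match missed the motif threshold. The second, at chr19:21734194-21734547 between genes, had 39 and 24 reads in D0 WT, 18 and 21 in D0 K20R, and 42 and 33 in D4 WT. Its D0 ranks, 27.3 and 32.6 in WT and 11.1 and 23.4 in K20R, did not overlap either.

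The third site, at chr11:30674110-30674572 between genes and 24846 bp from a start site of Acyp2, which encodes an acylphosphatase, had 57 and 23 reads in D0 WT, 30 and 30 in D0 K20R, and 36 and 34 in D4 WT. By rank it stood at 74.4 and 48.4 in D0 WT and at 35.3 and 27.4 in D0 K20R. The fourth, at chr14:46721974-46722365 between genes, had 56 and 23 reads in D0 WT, 12 and 11 in D0 K20R, and 39 and 36 in D4 WT. Its D0 ranks were 76.6 and 51.7 in WT and 10.0 and 8.34 in K20R. An intron of Gtf2f1, which encodes a subunit of the general transcription factor TFIIF, held the sixth, at chr17:57007013-57007474, with 45 and 27 reads in D0 WT, 21 and 11 in D0 K20R, and 34 and 26 in D4 WT. At 8 of the 10 strongest sites both D0 K20R ranks lay below both WT ranks, and at the other 2 they overlapped. Over all sites called in all 4 D0 lists, both K20R ranks lay below both WT ranks at 30.6%. The 10 sites were chosen by high D4 WT signal and no D4 K20R peak, so their count is a description. Of these 10, 7 had a motif match, none of the 10 best matches lay in a masked repeat, and 1 site overlapped H3K27ac.

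That marked site lay in an exon of Ncl, the gene of the nucleolar protein nucleolin, at chr1:86348740-86349196, with H3K27ac peaks in both genotypes. It had 29 and 10 reads in D0 WT, 16 and 18 in D0 K20R, and 24 and 36 in D4 WT, and its D0 ranks of the genotypes overlapped. The others of the 10 lay between genes nearest to Agmo (an alkylglycerol monooxygenase), Gm5001 and Prkg2 (a cGMP-dependent protein kinase), and in an intron of Palm2 and Pakap, at percentiles from 64.1 to 66.0.

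Within 3 kb of a protein-coding start site, the 10 strongest lost sites belonged to Mxra7, Htatip2, Isoc2a, 1810055G02Rik, Ret, Sall2, Smagp, Enc1, Sbk2 and Enthd1, at D4 WT percentiles from 51.2 to 61.5. The site in an intron of Ret, a receptor tyrosine kinase for ligands of the GDNF family, lay 1860 bp from the start site at chr6:118195082-118195459. It had 24 and 27 reads in D0 WT, 22 and 15 in D0 K20R, and 24 and 27 in D4 WT. Its D0 ranks overlapped, at 19.7 and 60.6 in WT and 29.2 and 16.9 in K20R. The site in an intron of Sall2, a zinc-finger transcription factor, 2666 bp from the start site at chr14:52325848-52326220, had 46 and 32 reads in D0 WT, 11 and 23 in D0 K20R, and 29 and 27 in D4 WT. It overlapped H3K27ac in WT and not in K20R. The site 768 bp from the start site of Enc1, an actin-binding kelch protein, overlapped H3K27ac in both genotypes and had 24 and 8 reads in D0 WT, 16 and 13 in D0 K20R, and 22 and 23 in D4 WT. By rank at D0, K20R lay below WT at 5 of the 10 sites, above it at 1 (Mxra7) and overlapped it at 4. The share below was 30.6% over all sites called in all 4 D0 lists, and D4 signal had chosen these 10 too.

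Across 21924 protein-coding genes, 734 (3.35%) had one of the 2083 sites within 10 kb of a start site. Among genes of the primitive streak and mesoderm, 2 of 16 had one, T and Tbx6. Among pluripotency genes it was 2 of 18, Pou5f1 and Fgf4, and among signalling genes 2 of 21, Axin2 and Smad2. None of 22 cardiac genes and none of 17 neural and endoderm genes had one. Of 20 genes for CTCF, cohesin and acetylation factors, 3 had one: Ctcfl, Pds5a and Zfp143. These counts are small, and the lists were chosen with earlier results of these data known.

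The site nearest T, the gene of the mesoderm transcription factor Brachyury, lay 9716 bp from its start site at chr17:8443963-8444401 between genes. It had 35 and 12 reads in D0 WT, 15 and 21 in D0 K20R, and 18 and 15 in D4 WT, with no motif match and no H3K27ac overlap. The site 6723 bp from the start site of Tbx6, a T-box factor of paraxial mesoderm, lay in an exon of Ppp4c at chr7:126787981-126788326. It had 19 and 13 reads in D0 WT, 12 and 10 in D0 K20R, and 29 and 20 in D4 WT, and it overlapped H3K27ac in WT and not in K20R. By rank, D0 K20R lay below D0 WT at the Tbx6 site (9.49 and 5.56 against 10.4 and 19.3) and overlapped it at the T site.

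Pou5f1 encodes OCT4, a core pluripotency factor. Its site, 8341 bp from the start site at chr17:35497434-35497820, had 23 and 10 reads in D0 WT, 15 and 21 in D0 K20R, and 11 and 12 in D4 WT. By rank, D0 K20R lay above D0 WT there (12.6 and 23.4 against 10.2 and 5.16). The site near Fgf4, a growth factor gene active in stem cells, lay within the annotated gene at chr7:144851303-144851707, 9841 bp from the start site used. It had 24 and 14 reads in D0 WT, 11 and 12 in D0 K20R, and 15 and 14 in D4 WT, and its D0 ranks overlapped.

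Axin2, a negative regulator and target of Wnt signalling, had the site closest to a start site of the listed genes, 229 bp away at chr11:108920041-108920298. It was also the weakest of them in D4 WT, with 11 and 8 reads, beside 11 and 9 in D0 WT and 10 and 12 in D0 K20R, and H3K27ac overlapped it in both genotypes. Its D0 ranks overlapped too. The site 7196 bp from a start site of Smad2, a transducer of Nodal and activin signals, had 21 reads in the first D0 WT library, no peak in the second, 9 and 12 reads in D0 K20R, and 10 and 13 in D4 WT.

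The site near Ctcfl, the germline paralogue of CTCF, lay 7367 bp from its start site at chr2:173126719-173127010 and had 20 and 11 reads in D0 WT, 7 and 9 in D0 K20R, and 10 and 10 in D4 WT. Pds5a, a regulator of cohesin, had a site at 8213 bp, at chr5:65706082-65706501, with 28 and 10 reads in D0 WT, 16 and 11 in D0 K20R, and 12 and 20 in D4 WT. The site near Zfp143, a zinc-finger factor found at promoters and loop anchors, lay 6229 bp away at chr7:110067736-110068095, with 33 and 19 reads in D0 WT, 13 and 11 in D0 K20R, and 12 and 10 in D4 WT. By rank, D0 K20R lay below D0 WT at the Ctcfl site (0.590 and 1.88 against 12.3 and 13.5) and the Zfp143 site (3.45 and 1.62 against 30.9 and 32.2), and overlapped it at the Pds5a site.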

How the data were processed

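CTCF and H3K27ac were mapped by ChIP-seq. Per the study's methods, the authors trimmed reads with Trim Galore, aligned them with Bowtie2 to mm10, removed low-quality, duplicate and blacklisted reads, subsampled CTCF libraries to one read number and called peaks per library with MACS2. The deposited lists give per peak a score (not used here), the fold enrichment over background (a ratio), and the p-value and q-value as −log10. They hold no read counts. Which input was set against which library is not given in the sources used here. Pileup and local background were solved from the deposited fold and −log10 p, and an integer pileup fitted 100% of CTCF peaks to within 0.01 of −log10 p. The lowest background per list ran from 0.717 to 0.757 reads.

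The members and gene lists were chosen with earlier results of these data known. Sites were merged from peaks overlapping by at least 1 bp. Summit and strength came from the D4 WT lists. Motif training used 1000 top peaks per D0 WT list. Start sites, exons and genes came from GENCODE M21 basic. Named sites were the 10 strongest members, the 10 strongest within 3 kb of a protein-coding start site, and those within 10 kb of a listed gene. An exact permutation test over the 4 D0 libraries had been planned, and its p is not given, since the rule used D0 K20R calls. Steps were tested on simulated data. Alternatives included omitting each library in turn, equal list lengths, a stricter q (5 or more as −log10), summit windows, blocking by replicate, and other thresholds and distances. Scripts ran in Python 3.11.15 with scipy 1.17.1, pandas 2.3.3, numpy 2.4.6 and, for plots, matplotlib 3.10.9.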

Additional observations from a re-analysis of the deposited data

How the results depend on the processing

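Single results were recomputed 45 times under other settings and 96 times with a library left out. Of these values, 23 of the 45 and 26 of the 96 moved beyond the limit set for the result. Only the D0 rank difference has a sign that could reverse, and it stayed negative each time it was recomputed. The other results are counts, shares, medians and ratios, for which a reversal is not defined. The D0 rank difference of the lost sites was -6.30 points with stricter peaks and ran from -5.86 to -4.46 points with a library left out. With the replicate block, taken as K20R minus WT within each replicate number, it was -5.75 points. The deviations of same-numbered D0 WT and D0 K20R libraries correlated at -0.0167 over 36440 sites, so no pairing was assumed between them. Among the other pairs of groups, D0 WT and D4 K20R had the largest correlation, 0.245. Against retained sites the difference was -6.09 points, as log2 pileup -0.44 with overlapping groups, and with all 2083 sites ranked, chosen after seeing the data, -3.29 points.

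With lists of one length, the number of sites was 308, the share called in both D0 WT lists 73.1%, the median D4 WT percentile 45.0, the repeat share 34.0%, the share near a start site 19.5%, the H3K27ac shares 6.17% (WT) and 8.44% (K20R), and the distance to a retained site 17940 bp. With peaks limited to a −log10 q of 5 or more, the percentile was 32.2, the pileup ratio 1.55, the repeat share 48.6%, the K20R H3K27ac share 8.51% and the distance 16172 bp. At the stricter motif threshold, 34.6% of sites had a match, of which 38.5% held a CpG and 68.8% lay in repeats, and within 50 bp of the summit 66.6% had a match. Start sites were within 1 kb of 7.01% and within 10 kb of 44.4%. Stricter H3K27ac peaks overlapped 3.94% (WT) and 4.51% (K20R), percentiles of −log10 p gave 26.7, and the nearest site of any kind in both D4 WT lists was 10430 bp away.

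Leaving out each CTCF library in turn gave 2084 to 5187 sites, 67.2% to 99.3% called in the D0 WT lists left, D4 WT percentiles from 23.9 to 31.0, pileup ratios from 2.2 to 2.6, motif shares from 68.9% to 71.3%, CpG shares from 30.8% to 36.5%, repeat shares from 47.2% to 55.9%, 16.4% to 24.8% near a start site, H3K27ac shares from 7.06% to 12.3% (WT) and from 9.37% to 14.3% (K20R), and distances from 13413 to 14819 bp. Differences from retained sites under these settings, the 12-base stretch and the within-quintile strengths were examined after seeing the data, and the difference in the share near a start site did turn without the second D4 K20R library. Peak lists show no signal below the calling limit, so how much CTCF remained at the lost sites was not measured.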

Other observations

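Among the autosomes and chromosome X, the share of candidates that were lost after differentiation ran from 3.93% on chromosome 5 (129 of 3279) to 6.58% on chromosome 16 (92 of 1398), with 95% Wilson intervals of 3.32% to 4.66% and 5.40% to 8.00%. In the stretch of chromosome 14 from 40 to 70 Mb it was 5.47% (30 of 548), in that of chromosome 8 from 80 to 110 Mb 3.92% (25 of 637), and elsewhere 4.84%.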
